A study of Mus musculus with 24 samples.

Results

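The 10 genes described here are markers of astrocytes and of the transport work these cells do in the ventral tegmental area (VTA): the glutamate transporters Slc1a2 and Slc1a3, the water channel Aqp4, the connexins Gja1 and Gjb6, the filament gene Gfap, the calcium-binding protein gene S100b, the folate enzyme gene Aldh1l1, the transcription factor gene Sox9 and the angiotensinogen gene Agt. They were taken by name from the 19938 genes of the array's annotation. All 10 were found, and each was represented by 1 probe set, the group of oligonucleotides on the array that reports 1 transcript.

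The arrays measured mRNA in micropunches of the VTA, the midbrain region that holds the dopaminergic neurons of the reward system. Male wild-type C57BL/6N mice aged 10 to 12 weeks were kept in 12 h of light and 12 h of dark with chow and water ad libitum, and by their labels the groups differed only in the time of sampling. The 6 groups were ZT0, ZT4, ZT8, ZT12, ZT16 and ZT20 (zeitgeber time, hours after lights on) and each held 4 mice, every mouse measured on an array of its own, which makes 24 arrays. The labels thus give 4-h intervals, whereas the study's methods name 6-h intervals, and the times used here are those of the labels. Punches 0.5 mm wide from slices 0.5 mm thick hold neurons, glia and vessels together, so fewer astrocytes and less mRNA per astrocyte cannot be told apart in any value below. An array value is a level of 1 probe set on the log2 scale and was compared between mice, never between genes.

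Astrocytes are the glial cells that keep the space around neurons fit for signalling. They take up glutamate after its release, pass water through channels packed into the endfeet that wrap blood vessels, and are joined into networks by gap junctions built from connexins. In many tissues the circadian clock sets daily rhythms of transport and metabolism, and astrocytes carry such a clock themselves. The question put to the arrays was whether the genes for these functions changed over the day in the VTA.

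None of the 10 genes passed the test for a 24-h rhythm, and none passed the test of early light against early dark. In a limma fit of a 24-h cosine curve, 0 of 10 passed an adjusted p under 0.05, against 7 of 23410 transcripts tested (0.0299%). At an unadjusted p under 0.05 the count was also 0 of 10, against 2085 transcripts (8.91%). The adjusted p values ran from 0.728, for Sox9, to 0.963, for Gfap. The fitted curves were shallow, with peak-to-trough folds of 1.02 to 1.10 and a median of 1.065, against a median of 1.074 over all transcripts. The upper end of the 95% confidence region of that fold lay between 1.13 and 1.29, and every region reached down to a flat curve. These limits differed between genes, from 1.13 for Slc1a2 and Gjb6 to 1.29 for S100b, and a swing larger than a gene's own limit lay outside its region.

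The early light phase (mean of ZT0 and ZT4) was then set against the early dark phase (mean of ZT12 and ZT16), that is, the start of the mouse's rest phase against the start of its active phase. Again 0 of 10 genes passed, whether p was adjusted (8 of 23410 transcripts, 0.0342%) or not (2386 transcripts, 10.2%). The differences ran from -0.08 to 0.09 on the log2 scale, 8 above 0 and 2 below, and all 10 of the 95% confidence intervals contained 0. Those of Aqp4 and Agt were near 0 (0.0016 and 0.0013). Without the array ZT0 replicate 4, described below, those of Gfap, Aqp4 and Agt lay below 0 (-0.00025, -0.0075 and -0.012). Over all transcripts 11113 differences lay above 0 and 12297 below. The median size of the 10 differences was 0.03, against 0.06 over all transcripts. Setting ZT4 with ZT8, later in the light, against ZT16 with ZT20, later in the dark, gave 0 of 10 at an unadjusted p under 0.05 (1800 transcripts, 7.69%), with 5 differences above 0. Taking the 6 time points as groups gave 0 of 10 as well (1193 transcripts, 5.1%). Within a time point the 10 genes had a median SD between mice of 0.11 on the log2 scale, against 0.13 over all transcripts. Of the 10, 7 lay below that value. S100b (0.16), Gfap (0.16) and Gja1 (0.15) lay above it, at the 70.9, 70.4 and 65.6 percentiles of all transcripts. The transcripts were not matched to the 10 genes in level.

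**Figure D1:**
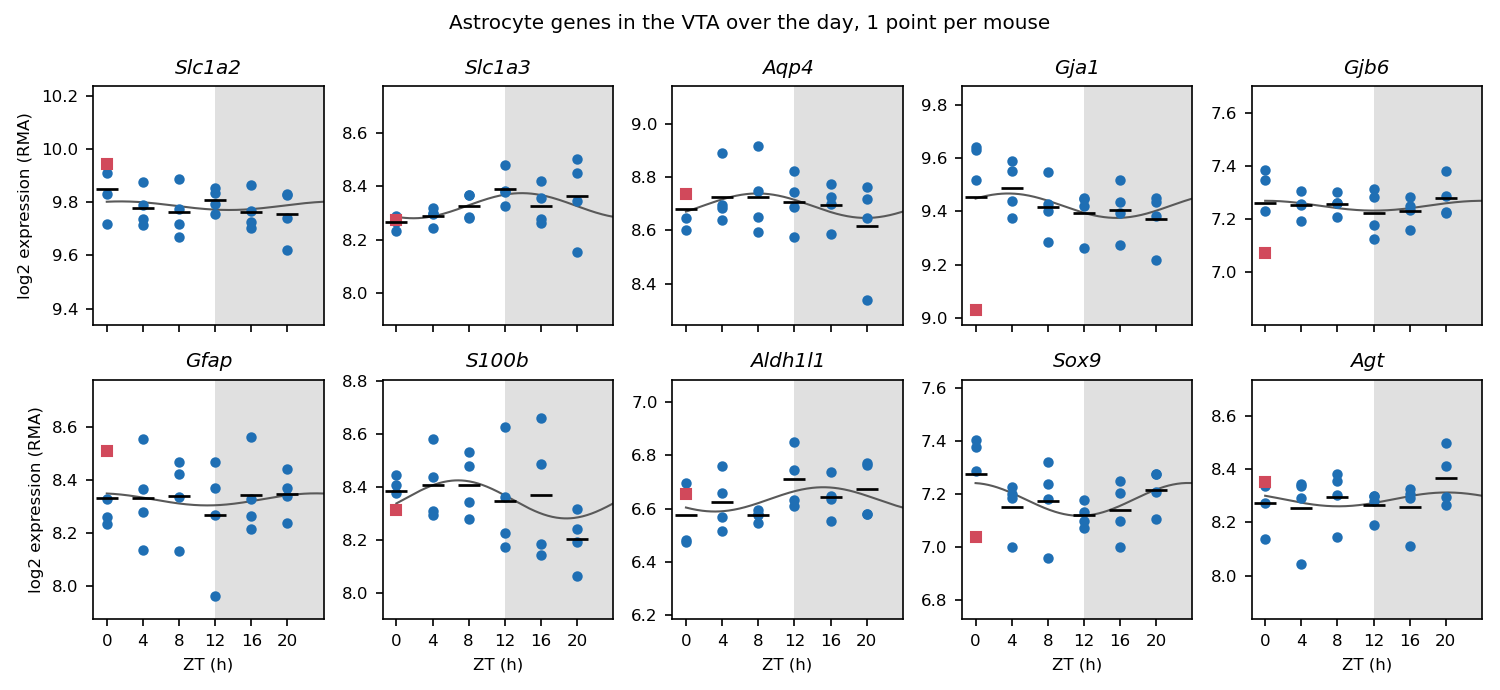
Level of each gene (log2, RMA) in each of 24 mice against ZT in hours, 4 mice per time point; the bar is the mean of a time point, the line the fitted 24-h curve, grey the dark phase and the red square ZT0 replicate 4. The curves are nearly flat, with folds of 1.02 to 1.10, and the red square lies lowest of 24 for Gja1 and Gjb6 and highest for Slc1a2.

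A single array, ZT0 replicate 4, stood apart from the other 23: its median correlation with them over all transcripts was 0.970, against at least 0.988 for every other array. There 327 transcripts lay over 1 log2 unit lower than the mean of the other 3 mice of ZT0 and 60 lay as far above, whereas no other array had more than 17 on either side. The early differences and curves of Gja1, Gjb6 and Sox9 and the main correlations are given with and without it.

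Slc1a2 encodes GLT-1, the main glutamate transporter of astrocytes. Its levels were 9.91, 9.83, 9.72 and 9.94 at ZT0, 9.71, 9.79, 9.74 and 9.88 at ZT4, and 9.78, 9.89, 9.72 and 9.67 at ZT8. In the dark phase they were 9.83, 9.85, 9.79 and 9.76 at ZT12, 9.72, 9.70, 9.77 and 9.87 at ZT16, and 9.74, 9.83, 9.83 and 9.62 at ZT20. The 6 groups overlapped throughout, and the highest and the lowest of 24 arrays, ZT0 replicate 4 and ZT20 replicate 4, were only 1.25-fold apart. Its curve had the lowest fold of the 10 genes, 1.02 with an upper limit of 1.13 (limma, adjusted p = 0.961). The early light minus early dark difference was 0.03 (SE 0.05, 95% interval -0.07 to 0.13, limma adjusted p = 0.888).

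Slc1a3 encodes GLAST, the other glutamate transporter of astrocytes. Its levels were 8.23, 8.29, 8.27 and 8.27 at ZT0 and 8.48, 8.38, 8.38 and 8.33 at ZT12, so that all 4 mice at the start of the dark phase lay above all 4 mice at the start of the light phase. The remaining time points filled the gap, with means of 8.29 at ZT4, 8.32 at ZT8, 8.33 at ZT16 and 8.36 at ZT20, and at ZT20 the mice alone ran from 8.15 to 8.51. The separation of ZT0 from ZT12 was noticed after the values were seen and was not tested on its own. The curve peaked at ZT13.9 (SE 2.22 h) with a fold of 1.07 and an upper limit of 1.18 (limma, adjusted p = 0.746). Its early light minus early dark difference was -0.08 (SE 0.05, 95% interval -0.18 to 0.02, limma adjusted p = 0.582), 1 of the 2 genes with a difference below 0. Its SD within time points, 0.08, was at the 3.45 percentile of all transcripts, and those of Gjb6 (0.08) and Slc1a2 (0.08) were at the 4.03 and 4.87 percentiles.

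Aqp4 encodes the water channel of astrocyte endfeet. Its levels were 8.74, 8.60, 8.65 and 8.74 at ZT0, 8.64, 8.68, 8.69 and 8.89 at ZT4, and 8.75, 8.92, 8.65 and 8.59 at ZT8. In the dark they were 8.69, 8.82, 8.75 and 8.58 at ZT12, 8.70, 8.59, 8.72 and 8.78 at ZT16, and 8.72, 8.65, 8.76 and 8.34 at ZT20. The groups overlapped, and ZT20 replicate 4 lay below the other 23 arrays, the next of which was at 8.58. The time point means ran from 8.62 at ZT20 to 8.73 at ZT4, less than the SD of 0.12 between mice of a time point. The curve had a fold of 1.07 with an upper limit of 1.21 (limma, adjusted p = 0.831), and it fell to 1.02 without ZT20 replicate 4. The difference between early light and early dark was 0.00 (SE 0.06, 95% interval -0.13 to 0.13, limma adjusted p = 0.996).

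Gja1 and Gjb6 encode the connexins that build the gap junctions between astrocytes. Gja1 levels were 9.63, 9.52, 9.64 and 9.03 at ZT0, 9.59, 9.55, 9.44 and 9.37 at ZT4, and 9.40, 9.55, 9.28 and 9.43 at ZT8. They were 9.42, 9.45, 9.45 and 9.26 at ZT12, 9.39, 9.43, 9.52 and 9.27 at ZT16, and 9.38, 9.45, 9.43 and 9.22 at ZT20. Thus 2 mice of ZT0 were the highest of all 24 and another, ZT0 replicate 4, was the lowest, 1.48-fold below the mean of the other 3. Over 24 arrays the curve of Gja1 had a fold of 1.07 with an upper limit of 1.23 (limma, adjusted p = 0.866), and early light minus early dark was 0.07 (SE 0.07, 95% interval -0.08 to 0.22, limma adjusted p = 0.769).

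Gjb6 levels were 7.38, 7.23, 7.35 and 7.07 at ZT0, 7.26, 7.25, 7.30 and 7.19 at ZT4, and 7.21, 7.26, 7.26 and 7.30 at ZT8. They were 7.28, 7.18, 7.31 and 7.12 at ZT12, 7.23, 7.25, 7.28 and 7.16 at ZT16, and 7.23, 7.29, 7.38 and 7.22 at ZT20. As for Gja1, ZT0 held both extremes. The time point means spanned 1.04-fold, the smallest span of the 10 genes, and the curve had a fold of 1.03 with an upper limit of 1.13 (limma, adjusted p = 0.945). The early difference was 0.03 (SE 0.05, 95% interval -0.07 to 0.13, limma adjusted p = 0.886).

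The sequences just before the transcription starts of these connexin genes are shown because their levels moved together between mice, as described further on. They are the 250 bases upstream of the RefSeq start in the GRCm38.p6 assembly, chr10:56377050-56377299 on the plus strand for Gja1 and chr14:57133612-57133861 on the minus strand for Gjb6, each written 5′ to 3′ along the gene. Capitals mark a match to the AP-1 motif TGANTCA.
Gja1: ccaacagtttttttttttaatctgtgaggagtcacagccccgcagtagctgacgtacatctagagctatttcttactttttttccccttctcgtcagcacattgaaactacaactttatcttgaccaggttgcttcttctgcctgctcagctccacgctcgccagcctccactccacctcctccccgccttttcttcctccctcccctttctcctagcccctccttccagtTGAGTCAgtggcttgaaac
Gjb6: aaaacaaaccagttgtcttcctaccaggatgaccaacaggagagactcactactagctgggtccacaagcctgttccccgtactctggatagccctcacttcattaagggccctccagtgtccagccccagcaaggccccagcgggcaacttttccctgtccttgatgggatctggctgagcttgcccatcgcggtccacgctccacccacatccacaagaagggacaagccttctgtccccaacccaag
The AP-1 motif, which was searched after the Gja1 sequence had been seen, was present on either strand in 6.75% of 32851 upstream windows of this length. Of the 8 genes with an entry in the promoter table it was present in Gja1 only. The E-box CACGTG, the element bound by the clock factors CLOCK and BMAL1, was present in 6.02% of windows and in 0 of the 8 genes. The nuclear receptor half-site AGGTCA was found in 14% of windows and in 2 of the 8 genes, Gfap and Aldh1l1. AGAACA, the half-site of the glucocorticoid receptor, was found in 16.1% of windows and in Slc1a3, and the SOX core ACAAAG in 16.5% of windows and in 0 of the 8 genes. Both strands were searched for each motif, and the Gja1 window held no match to another of them. A match describes letters in a window and not a bound site.

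Gfap encodes the intermediate filament of astrocytes that rises when they become reactive. Its time point means lay between 8.27 ± 0.22 (SD, n = 4) at ZT12 and 8.35 ± 0.08 (SD, n = 4) at ZT20, and single mice ran from 7.96 to 8.56, a 1.51-fold range. The curve had a fold of 1.03 with an upper limit of 1.19, and its p was the highest of the 10 genes (limma, adjusted p = 0.963). The difference between early light and early dark was 0.03 (SE 0.07, 95% interval -0.12 to 0.18, limma adjusted p = 0.923). Its SD within time points, 0.16, was larger than the whole span of the time point means, 0.08.

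S100b encodes a calcium-binding protein of astrocytes that is also released from them. It had the steepest curve of the 10 genes, a fold of 1.10 with an upper limit of 1.29 and a peak at ZT6.82 (SE 2.27 h), and this curve too missed the threshold (limma, adjusted p = 0.754). The means were 8.39 ± 0.06 at ZT0, 8.41 ± 0.13 at ZT4 and 8.41 ± 0.12 at ZT8 (SD, n = 4 each). They were 8.35 ± 0.20 at ZT12, 8.37 ± 0.25 at ZT16 and 8.20 ± 0.11 at ZT20 (SD, n = 4 each). The low mean at ZT20 came from levels of 8.32, 8.19, 8.24 and 8.07, of which 3 lay within the range of the ZT12 mice. Without ZT20 replicate 4 the fold was 1.07. The early difference was 0.04 (SE 0.07, limma adjusted p = 0.896) and the later one, ZT4 and ZT8 against ZT16 and ZT20, was 0.12 (SE 0.07, limma adjusted p = 0.727).

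Aldh1l1 encodes the cytosolic enzyme that oxidises 10-formyltetrahydrofolate and is widely used to label astrocytes. Its means were 6.58 ± 0.12 at ZT0, 6.63 ± 0.11 at ZT4 and 6.57 ± 0.02 at ZT8, and 6.71 ± 0.11 at ZT12, 6.64 ± 0.08 at ZT16 and 6.67 ± 0.11 at ZT20 (SD, n = 4 each). Each dark-phase mean was above each light-phase mean, but the mice overlapped, from 6.47 to 6.76 in the light and from 6.55 to 6.85 in the dark. The curve peaked at ZT15.2 (SE 2.59 h) with a fold of 1.07 and an upper limit of 1.19 (limma, adjusted p = 0.803). Aldh1l1 was the other gene with a difference below 0, -0.08 (SE 0.05, 95% interval -0.19 to 0.04, limma adjusted p = 0.661).

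Sox9 encodes a transcription factor of astrocyte nuclei. Its levels were 7.29, 7.38, 7.40 and 7.04 at ZT0, 7.20, 7.23, 7.19 and 7.0005 at ZT4, and 6.96, 7.32, 7.24 and 7.18 at ZT8. They were 7.10, 7.07, 7.18 and 7.13 at ZT12, 7.10, 7.25, 7.20 and 7.002 at ZT16, and 7.11, 7.28, 7.27 and 7.21 at ZT20. The pattern at ZT0 was that of Gja1, with 3 high mice and a low one, ZT0 replicate 4. The curve had a fold of 1.09 with an upper limit of 1.23 and a peak at ZT23.5 (SE 2.11 h; limma, adjusted p = 0.728). The early difference, 0.09 (SE 0.06, 95% interval -0.04 to 0.21, limma adjusted p = 0.659), was the highest of the 10 genes.

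Agt encodes angiotensinogen, the precursor of the angiotensin peptides, which astrocytes make in the brain. Its means were 8.27 ± 0.10 at ZT0, 8.25 ± 0.14 at ZT4, 8.30 ± 0.11 at ZT8, 8.27 ± 0.05 at ZT12 and 8.26 ± 0.10 at ZT16, with 8.37 ± 0.11 at ZT20 (SD, n = 4 each). The mice of ZT20, at 8.41, 8.50, 8.26 and 8.30, included the highest of all 24 and overlapped every other time point. The curve had a fold of 1.04 with an upper limit of 1.16 (limma, adjusted p = 0.927), and the early difference was 0.00 (SE 0.06, 95% interval -0.11 to 0.12, limma adjusted p = 0.997).

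**Figure D2:**
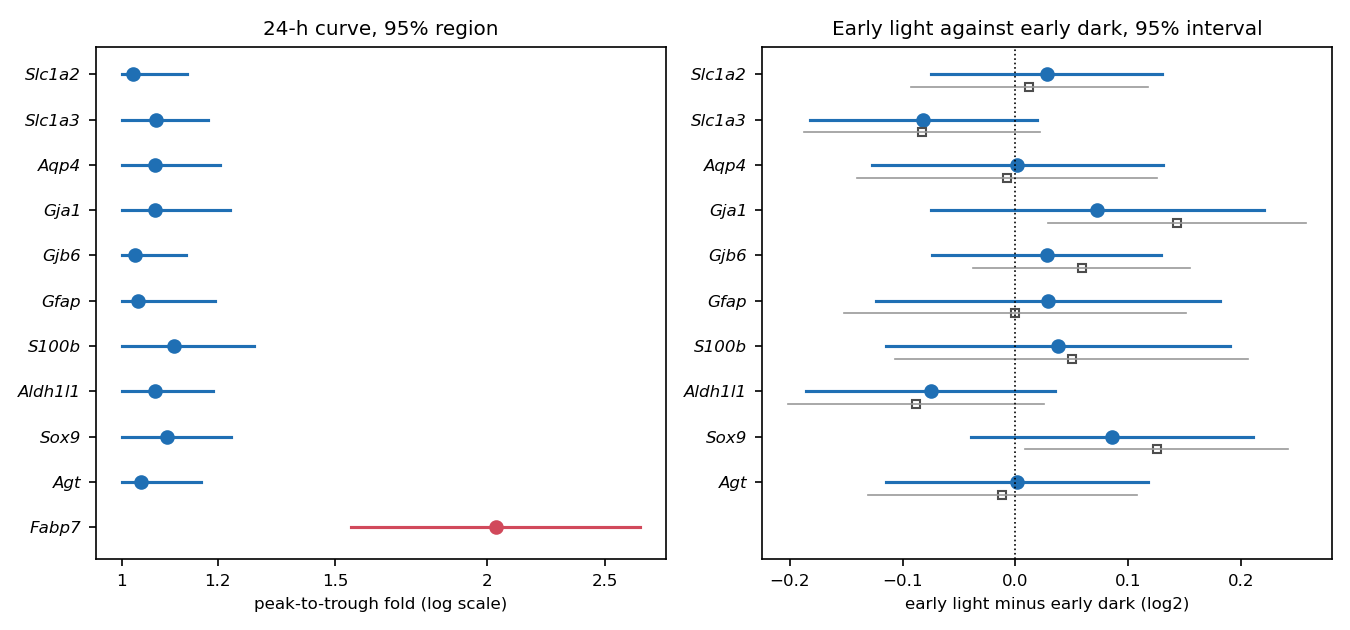
Left, peak-to-trough fold of the fitted 24-h curve (log scale) with its 95% confidence region for the 10 genes and for Fabp7, another astrocyte marker. Right, early light minus early dark (log2) with the 95% confidence interval; filled circles use 24 arrays and open squares the 23 arrays without ZT0 replicate 4. Of the intervals shown, those of Gja1 and Sox9 without that array leave 0, and the regions of the 10 genes end at or below 1.29.

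Leaving out ZT0 replicate 4 changed the early difference of Gja1, Gjb6 and Sox9 more than leaving out any other single array. In it Gja1 was 9.03, against 9.52 to 9.64 in the other 3 mice of ZT0, Gjb6 was 7.07 against 7.23 to 7.38, and Sox9 was 7.04 against 7.29 to 7.40. The same array lay above its group mates for Gfap, 8.51 against 8.23 to 8.33, and for Slc1a2, 9.94 against 9.72 to 9.91. It therefore held the lowest Gja1 and Gjb6 and the highest Slc1a2 of all 24 arrays, with low and high values among the 10 genes alike. Of the 28 other astrocyte markers on the array, 18 were higher in it than the mean of its group mates and 10 lower, with a median difference of 0.23, and over all transcripts 60.1% were higher, with a median of 0.07. Of the markers of other cells, 7 of 8 for dopamine neurons (median -0.25), 8 of 12 for neurons (median -0.08), 7 of 9 for microglia (median -0.10) and 6 of 9 for endothelium (median -0.04) were lower, and 2 of 9 for oligodendrocytes (median 0.10). It was higher for 3 of 4 markers of oligodendrocyte precursors (median 0.08), 4 of 7 of pericytes and meninges (median 0.01) and 5 of 8 of ependyma and choroid plexus (median 0.08). The same held for the 1 measured for blood (0.06) and for 7 of 10 of reactive astrocytes (median 0.07). The part of these markers in the values of the 10 genes was not tested.

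Without this array the early light minus early dark difference of Gja1 was 0.14 (SE 0.06, 95% interval 0.03 to 0.26), limma adjusted p = 0.357. That of Sox9 was 0.13 (SE 0.06, 95% interval 0.01 to 0.24), limma adjusted p = 0.417. These were the 2 of 10 genes at an unadjusted p under 0.05, in a fit in which 2600 transcripts (11.1%) did the same, and 0 of 10 passed the adjusted threshold, which 13 transcripts (0.0555%) passed. The curve of Gja1 steepened to a fold of 1.11 (limma, adjusted p = 0.602) and that of Sox9 to 1.12 (limma, adjusted p = 0.576), and 0 of 10 genes were rhythmic at an unadjusted p under 0.05. For Gjb6 the early difference was 0.06 (SE 0.05, 95% interval -0.04 to 0.16, limma adjusted p = 0.679). Its curve had a fold of 1.05 (limma, adjusted p = 0.811). Leaving out ZT20 replicate 4 as well, the array with the lowest Slc1a2, Slc1a3, Aqp4 and S100b, gave Gja1 a fold of 1.12 (limma adjusted p = 0.570), and Gja1 was then the 1 gene of 10 rhythmic at an unadjusted p under 0.05, as were 1979 transcripts (8.45%). With all 24 arrays kept but weighted by their quality, Gja1 (early difference 0.13, limma adjusted p = 0.296) and Sox9 (0.12, limma adjusted p = 0.353) were again the 2 of 10 genes at an unadjusted p under 0.05, against 3283 transcripts (14%), and 0 of 10 passed the adjusted threshold, which 45 transcripts (0.192%) passed.

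Although the 10 genes were all taken as markers of astrocytes, they varied together from mouse to mouse only in part. Over the 24 arrays the 45 pairs of genes had a median Pearson r of 0.07, from -0.45 to 0.73, and 19 pairs were below 0. In a permutation test with 100000 resamples, 8 pairs passed at an unadjusted p under 0.05 and 4 after Benjamini-Hochberg adjustment over the 45 pairs (5 by Spearman's rho). All 4 were positive, and they joined Aqp4 to Slc1a2 and the genes Gja1, Gjb6 and Sox9 to each other. How often pairs of other transcripts pass on these arrays was not tested, so these counts have no baseline.

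The water channel and the main glutamate transporter formed the closest pair. Aqp4 and Slc1a2 had r = 0.73 (permutation p = 4.0e-05, adjusted p = 0.0018) and rho = 0.73 (permutation p = 8.0e-05, adjusted p = 0.0036). Without the 2 arrays farthest from the median of Aqp4, ZT20 replicate 4 and ZT8 replicate 2, r was 0.61. Without ZT0 replicate 4 it was 0.76, and with the mean of each time point removed it was 0.83, so that the relation was one between mice killed at the same time. Gfap went with Aqp4 less closely, with r = 0.51 (permutation p = 0.0114, adjusted p = 0.103) and rho = 0.63 (permutation p = 0.00115, adjusted p = 0.0130). Gfap and Slc1a2 did not pass after adjustment, with r = 0.47 (permutation p = 0.0201, adjusted p = 0.151) and rho = 0.53 (permutation p = 0.00825, adjusted p = 0.0619). Without ZT0 replicate 4 their r was 0.41 (permutation p = 0.0531, adjusted p = 0.299).

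The connexin genes formed the other close pair. Gja1 and Gjb6 had r = 0.72 (permutation p = 0.00012, adjusted p = 0.0027) and rho = 0.63 (permutation p = 0.00116, adjusted p = 0.0130). ZT0 replicate 4 was the lowest array for both, and without it r fell to 0.60 (permutation p = 0.00271, adjusted p = 0.0406). Gjb6 and Sox9 had r = 0.63 (permutation p = 0.00088, adjusted p = 0.0132) and rho = 0.61 (adjusted p = 0.0182), with r = 0.60 without that array (permutation p = 0.00235, adjusted p = 0.0406). Gja1 and Sox9 had r = 0.58 (permutation p = 0.00262, adjusted p = 0.0295) and rho = 0.64 (adjusted p = 0.0130), and without that array r was 0.55 and no longer passed (permutation p = 0.00596, adjusted p = 0.0670). Leaving out the 2 arrays farthest from the median of the gene named first gave r = 0.61 for Gja1 and Gjb6, 0.63 for Gja1 and Sox9 and 0.63 for Gjb6 and Sox9.

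The mouse labelled replicate 4 had the lowest Gja1 at 5 of the 6 time points and the lowest Gjb6 at 5 of the 6. This was noticed after the values were seen and was not tested. Replicate numbers are not said to mark a batch, and over all transcripts the deviations of arrays of the same number had a median r of 0.03 over 60 pairs of arrays. With the means of time points and of replicate numbers both removed, r was 0.77 for Gja1 and Gjb6, 0.62 for Gjb6 and Sox9 and 0.60 for Gja1 and Sox9. When ZT0 replicate 4 was left out too, these values were 0.62, 0.45 and 0.35. For Aqp4 and Slc1a2 they were 0.88 with that array and 0.88 without it.

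**Figure D3:**
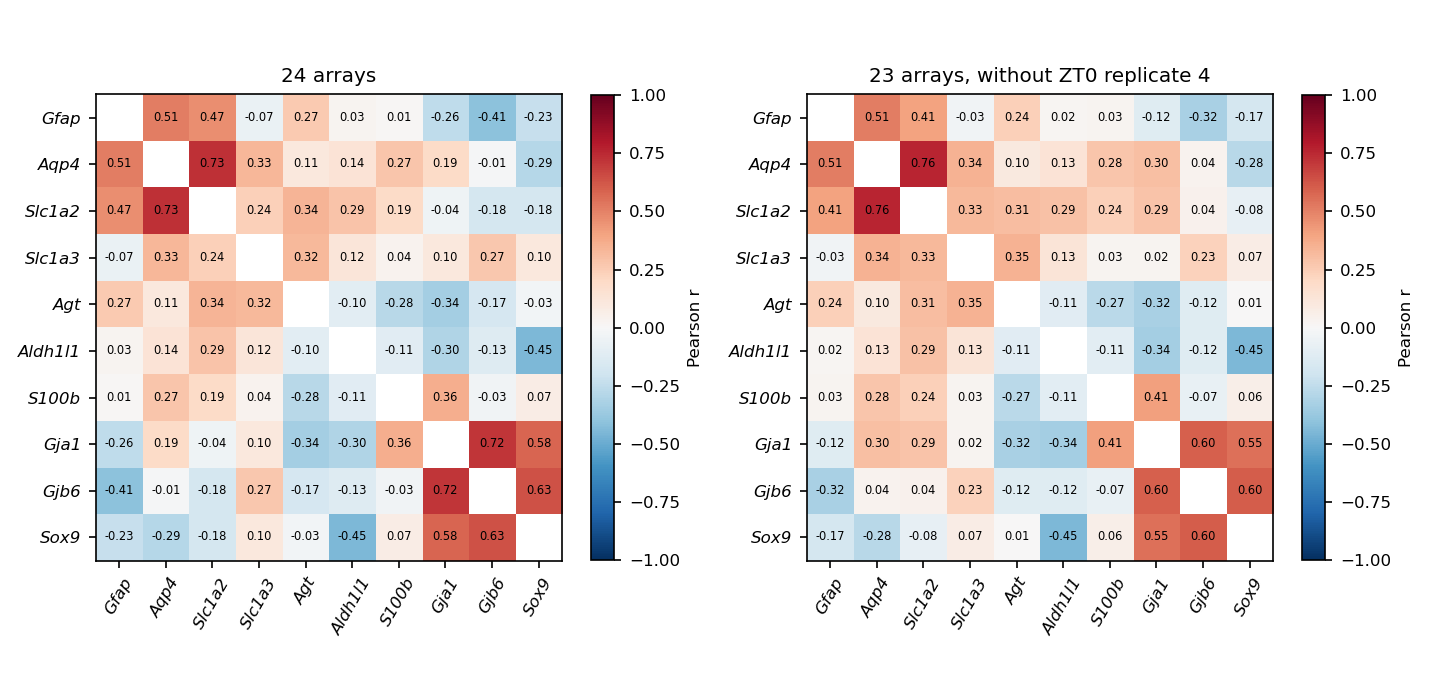
Pearson r between the log2 levels of each pair of the 10 genes, over 24 arrays on the left and over the 23 arrays without ZT0 replicate 4 on the right; red is positive and blue negative. Gfap, Aqp4 and Slc1a2 form 1 block of positive values and Gja1, Gjb6 and Sox9 another, and the blocks are joined by values between -0.41 and 0.19 over 24 arrays. In the former block only the r of Aqp4 and Slc1a2 passed the permutation test after adjustment.

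The mean of Gfap, Aqp4 and Slc1a2 and the mean of Gja1, Gjb6 and Sox9 had r = -0.21 over 24 arrays and -0.07 without ZT0 replicate 4. Since these trios were drawn from the same correlations, their relations to further genes are given as descriptions only, and single markers were picked for their r. The 28 other astrocyte markers, averaged, had r = 0.68 with the former trio and 0.02 with the latter (0.64 and 0.24 without ZT0 replicate 4). The 9 genes of glutamate, GABA and glycine uptake and turnover had r = 0.84 and -0.24 (0.82 and -0.10 without it). Among single markers the closest to Gfap, Aqp4 and Slc1a2 were Bcan, a proteoglycan of the extracellular matrix (r = 0.77, or 0.75 without that array), the lipoprotein gene Apoe (r = 0.73, or 0.70) and Clu, which encodes clusterin (r = 0.72, or 0.71). The closest to Gja1, Gjb6 and Sox9 were S1pr1, a receptor for sphingosine 1-phosphate (r = 0.75, or 0.71 without that array), the zinc transporter gene Slc39a12 (r = 0.65, or 0.50) and Ppp1r3c, a glycogen-targeting subunit of protein phosphatase 1 (r = 0.63 with and without it). The 11 glial transcription factor genes had r = 0.73 with the latter trio, or 0.61 without ZT0 replicate 4, and -0.15 with the former, or 0.04. Some markers of other cells moved with the trios as well. Against the former, r was 0.48 for neurons, 0.42 for oligodendrocytes and 0.48 for endothelium (0.48, 0.38 and 0.68 without that array). Against the latter it was 0.56 for microglia (0.46). These lists were also picked for their r. With the former trio r was 0.13 for dopamine neurons and 0.11 for microglia (0.32 and 0.24 without that array). It was -0.19 for oligodendrocyte precursors, pericytes with meninges and blood, and -0.28 for ependyma with choroid plexus. With the latter trio it was 0.44 for endothelium (0.30) and -0.59 for 7 genes of folate metabolism (-0.40). The remaining lists of other cells had r between -0.15 and 0.27 with the latter trio, or between -0.17 and 0.36 without that array. The 7 genes of potassium, sodium and acid handling went with both trios. Their r was 0.55 with the former and 0.43 with the latter (0.62 and 0.44 without that array). The part of tissue composition in these correlations was not tested.

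**Figure D4:**
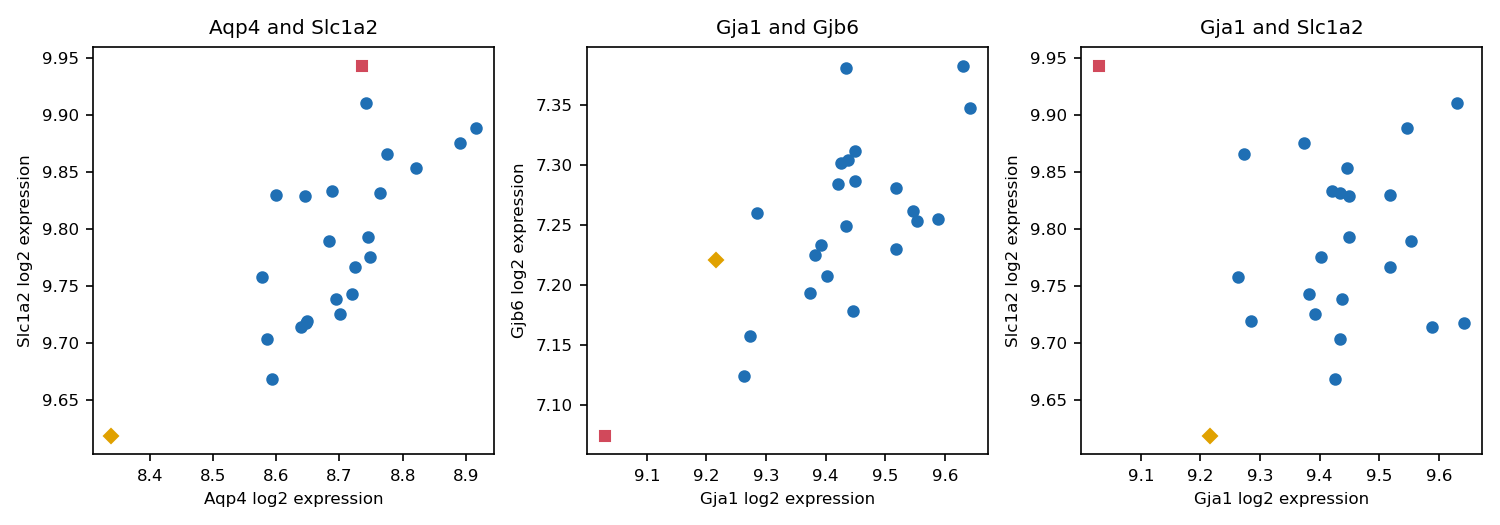
Log2 levels of Aqp4 and Slc1a2, of Gja1 and Gjb6, and of Gja1 and Slc1a2 in each of 24 mice; the red square is ZT0 replicate 4 and the yellow diamond ZT20 replicate 4. The first 2 panels rise from lower left to upper right (r = 0.73 and 0.72), and the last has r = -0.04, or 0.29 without ZT0 replicate 4.

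Of 104 genes in 9 lists of astrocyte markers and of relatives of the 10 genes, 93 were measured, 1 was rhythmic at an adjusted p under 0.05 and 9 at an unadjusted p (against 8.91% of all transcripts), and 0 differed between early light and early dark at an adjusted p. The rhythmic gene was Fabp7, a fatty acid binding protein of astrocytes and their precursors, with a fold of 2.03 (95% region 1.55 to 2.67), a peak at ZT4.46 (SE 0.573 h) and an adjusted limma p of 0.0079. Its lower limit of 1.55 was above the upper limit of every one of the 10 genes, the highest being 1.29 for S100b. Its call was lost with an ordinary F-test (adjusted p = 0.0771), with an added 12-h term (adjusted p = 0.0903), with time points as groups (adjusted p = 0.169) and over all probe sets (adjusted p = 0.0698). The other genes in its list of 28 astrocyte markers were not called. This list had 21 early differences above 0 and 7 below, where all transcripts had 11113 above and 12297 below. Its median was 0.05, against -0.01 over all transcripts.

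Few relatives of the transporters passed either. Of the 9 measured genes of glutamate, GABA and glycine handling 0 were rhythmic even at an unadjusted p under 0.05, among them Glul, the glutamine synthetase that converts the glutamate taken up (fold 1.09, limma adjusted p = 0.698), and Glud1, glutamate dehydrogenase (fold 1.09, limma adjusted p = 0.816). Of 7 genes of potassium, sodium and acid handling only Car2, carbonic anhydrase 2, passed at an unadjusted p (fold 1.22, peak ZT3.56, limma adjusted p = 0.316). The inward rectifier Kcnj16, which did not pass, had a fold of 1.12 (limma adjusted p = 0.623).

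Around the water channel, the 8 measured genes of other aquaporins and endfoot anchors had 7 early differences below 0 and 1 above, with a median of -0.07. Over all transcripts 12297 of 23410 lay below 0, with a median of -0.01. Dmd, the dystrophin gene whose short product helps to anchor AQP4 at the endfoot, was the 1 gene at an unadjusted p (fold 1.19, peak ZT13.3, limma adjusted p = 0.492). Aqp11, an aquaporin of intracellular membranes, had a fold of 1.12 (limma adjusted p = 0.635). Of 7 further connexin genes 0 passed, with Gjc1 at a fold of 1.11 and Gja4, a connexin of vessel walls, at 1.10. Of 8 genes of the renin-angiotensin system around Agt only Atp6ap2, the prorenin receptor gene, passed at an unadjusted p (fold 1.16, peak ZT6.42, limma adjusted p = 0.524).

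Among 8 filament and S100 genes 3 passed at an unadjusted p, which 8.91% of all transcripts did: S100a13 (fold 1.18, peak ZT4.76, limma adjusted p = 0.427), S100a16 (fold 1.18, peak ZT4.83, limma adjusted p = 0.460) and S100a6 (fold 1.17, peak ZT12.6, limma adjusted p = 0.525). Of the 7 folate genes around Aldh1l1 and the 11 glial transcription factor genes around Sox9, 0 passed. Ftcd, a formiminotransferase of folate metabolism, had a fold of 1.13 (limma adjusted p = 0.608), and Sox2, a factor of glia and neural stem cells, a fold of 1.19 (limma adjusted p = 0.647). The 10 genes of reactive astrocytes, such as Serpina3n (fold 1.08, limma adjusted p = 0.772) and Steap4 (fold 1.19, limma adjusted p = 0.641), gave 0 as well.

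When the 10 genes were averaged, each centred on its own mean, the transcript that followed this average most closely over the 24 arrays was Cct2, a subunit of the cytosolic chaperonin (r = 0.86). Atp6v0b, a subunit of the vacuolar proton pump (r = 0.84), and the transcription factor gene Gtf2i (r = 0.83) came next, followed by Tmem63a, Ugcg, Hadha, Dclk1, Ccser2, Ogt and Myh10. Without ZT0 replicate 4 the order was Gtf2i (r = 0.89), Cct2 (r = 0.88), Atp6v0b (r = 0.86), Ogdh, Npc1, Atp6ap1, Atp6v1e1, Tmem63a, Kif1b and Ugcg. These were picked as the highest of all transcripts and are no markers from the astrocyte lists. Single members followed the mean of the other 9 genes only in part, from r = 0.56 for Aqp4 and 0.54 for Slc1a2 to -0.17 for Aldh1l1. Without ZT0 replicate 4 these values were 0.59, 0.73 and -0.16.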

How the data were processed

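RNA from VTA punches of 24 mice was hybridised to whole-transcript expression arrays, 1 for each mouse. Log2 expression values were deposited as a single table, which per the submitters' processing notes was made with RMA (background correction, quantile normalization and probe summary) in R 2.13.1; these values were used as deposited. Of 35556 probe sets, 23410 had a gene in the annotation and were tested; 12146 had none. Precision is limited by the number of arrays. All 24 columns were mapped to a sample (0 unmapped). Time points and replicate numbers came from the sample titles, and per the methods the mice are independent.

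Computations used R 4.3.3 with limma 3.58.1, and plots matplotlib 3.10.9. CircWave, which the study used, was not available, so the log2 values were fitted on the cosine and sine of ZT (period 24 h) and both terms tested with limma's moderated F-test. The peak-to-trough fold has a joint 95% confidence region over both terms, and peak times a standard error by the delta method. Early light (ZT0, ZT4) was compared with early dark (ZT12, ZT16) in a limma fit of 6 groups. Benjamini-Hochberg adjustment ran over all 23410 transcripts, and calls needed an adjusted p under 0.05. Scripts were tested on simulated data. Correlations between genes were tested by two-sided permutation (100000 resamples, smallest possible p 1e-05) and adjusted over 45 pairs.

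The genes and lists were chosen with earlier results of these data known. Named were the 10 genes, up to 3 genes of each list with the smallest rhythm p, and the 10 transcripts most correlated with the average of the 10 genes. The grouping into trios, the AP-1 motif and the removal of ZT0 replicate 4 from correlations were chosen after the values were seen. Upstream sequences are RefSeq's (GRCm38.p6), matched by symbol for 8 of 10 genes. Alternatives were other tests, curves, scales, filters, normalizations, array weights, a replicate block, other time points and leaving out single arrays.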

Additional observations from a re-analysis of the deposited data

Results flagged for a closer look

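Over the 10 genes and 6 time points, 60 groups of 4 mice were screened for an array far from the other 3, and 3 groups had one (its gap to the nearest of them, over the range of the group, passed Dixon's 95% limit), where chance gives about 1 group in 20. Gja1 was 9.26 in ZT12 replicate 4, against 9.42 to 9.45 in the other 3 mice. Agt was 8.19 in ZT12 replicate 2, against 8.28 to 8.30. It was 8.11 in ZT16 replicate 1, against 8.29 to 8.32. Gja1 in ZT0 replicate 4, at 9.03 the lowest of 24, did not pass this limit.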

How the results depend on the processing

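The number of genes called was 0 of 10 for the 24-h rhythm and 0 of 10 for early light against early dark in the reported fits, without each of the 24 arrays in turn and under all other alternatives that could be run. No gene has another probe set, so that alternative was not run, and Aldh1l1 gave no value among transcripts above the median level. Over 60 same-number pairs of arrays, r ran from -0.30 to 0.58 with a median of 0.03, and 14 pairs were over 0.1. These values take all replicate numbers together, and a link within a single number was not tested. With the replicate number as a block the counts were 0 and 0. The lowest limma adjusted p of the early contrast among the 10 genes was then 0.550, for Slc1a3. Over all transcripts, the number of rhythmic calls ran from 1 to 19 under the other alternatives and from 4 to 12 with single arrays left out. The number of transcripts called in the early contrast, 8 as reported, was less stable. It was 3 with an ordinary test and 45, the highest of the other alternatives, with array weights. With single arrays left out it ran from 2, without ZT0 replicate 1, to 134, without ZT0 replicate 2. Late light against late dark, a comparison of other time points, gave 0. At an unadjusted p under 0.05, 0 to 2 of the 10 genes passed the early contrast with single arrays left out and 0 to 2 under the other alternatives. The early contrast changed sign for some genes, none of them called. With a further quantile normalization Aqp4 had -0.0277 and Slc1a2 -0.0571. With array weights Aqp4 had -0.0186 and Agt -0.0328. Late light against late dark is a comparison of other time points, in which Gfap had -0.0088, Sox9 -0.0130 and Agt -0.0384. With both ZT0 replicate 4 and ZT20 replicate 4 left out, the early contrast was -0.00025 for Gfap, -0.0075 for Aqp4 and -0.012 for Agt. The cause was not tested. With single arrays left out, the difference ran from -0.0219 to 0.0652 for Gfap, from -0.0257 to 0.0206 for Aqp4, from -0.0231 to 0.0362 for Agt and, with no change of sign, from 0.04 to 0.14 for Gja1 and from 0.06 to 0.13 for Sox9, the highest both without ZT0 replicate 4. The number of arrays limits what a single gene can show to its own confidence region.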
